A study of Mus musculus with 6 samples.

Results

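The genes with the highest transcript signal in the normal mouse mammary gland near the start of milk production are described here. They are the 300 genes of highest mean signal over 3 wild-type glands, out of 18193 genes with a named probe set, or 1.65% of them. RNA of whole glands was hybridised to 1-colour Affymetrix expression arrays, 1 array per animal. The series holds 6 arrays, and the 3 from Elf5 knockout glands entered no value. The wild-type labels give pregnancy day 17 as the stage and call the 3 arrays biological replicates, whereas the design text of the series names lactation day 1, and the stage is not settled here. Strain, age and parity are not given in the sources used. Within each gene the probe set with the highest mean signal stood for the gene, and genes were ranked by that mean on the linear scale. Because signal chose the genes and set their order, ranks and levels are given as a description, without tests.

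The mammary gland makes milk in alveoli, hollow spheres of luminal secretory cells wrapped by contractile myoepithelial cells and set in a stroma of fat cells, fibroblasts, vessels and immune cells. In late pregnancy the secretory cells begin to transcribe the genes for caseins and whey proteins, for fat synthesis and for the coat that surrounds secreted fat droplets. Prolactin drives much of this programme through the transcription factor STAT5, and Elf5 is a transcription factor of the alveolar lineage. An array of the whole gland mixes all these cells, and for every gene described here fewer cells of a type and less RNA per cell cannot be told apart. The signal of a probe set also depends on its probes, so the order of genes is an order of array signal and not of transcript number.

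The labelled tissue was checked against its defining markers, with values given in the order of arrays 1, 2 and 3. Beta-casein (Csn2), a main milk protein of the mouse, had signals of 27414, 15974 and 9008, a mean of 17465 ± 9294 (SD, n = 3) and rank 12. Alpha-s1-casein (Csn1s1) had signals of 33934, 20284 and 12252 and rank 2. Whey acidic protein (Wap), the whey protein typical of rodents, had signals of 20172, 12607 and 6851 and rank 29. All these markers lay far above the median signal of all probe sets, which was 41.3, 38.8 and 34.3. Elf5, the gene removed in the other arm of the series, was itself among the 300, with signals of 12011, 8044 and 7244 and rank 84.

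The 300 genes held 38.8%, 32.5% and 28.6% of the summed signal of all named genes, a mean of 33.3% ± 5.15 (SD, n = 3). The first gene alone held 0.523%, 0.385% and 0.223%, and the first 20 held 7.31%, 5.38% and 3.48%. The first 1000 genes held 54.5% ± 4.01, so most of the signal came from a small part of the genome's named genes. The share was highest in array 1 and lowest in array 3 at each of these depths. The bright end was also flatter in array 3, where the signal at rank 1 was 1.41 times that at rank 30, against 2.05 times in array 1 and 2.01 times in array 2. The bacterial Cre control, which is added in the laboratory, had its 3′ signal at 15548, 12415 and 6124, in the same order of arrays. The Dap control, also added, did not follow that order, at 2383, 119.5 and 734. The ratio of 3′ to 5′ signal of beta-actin, a measure of RNA integrity, was 2.04, 1.20 and 1.84. The same ratio for Gapdh was 1.09, 0.83 and 0.88. The part of array handling and RNA integrity in the share was not tested.

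**Figure D1:**
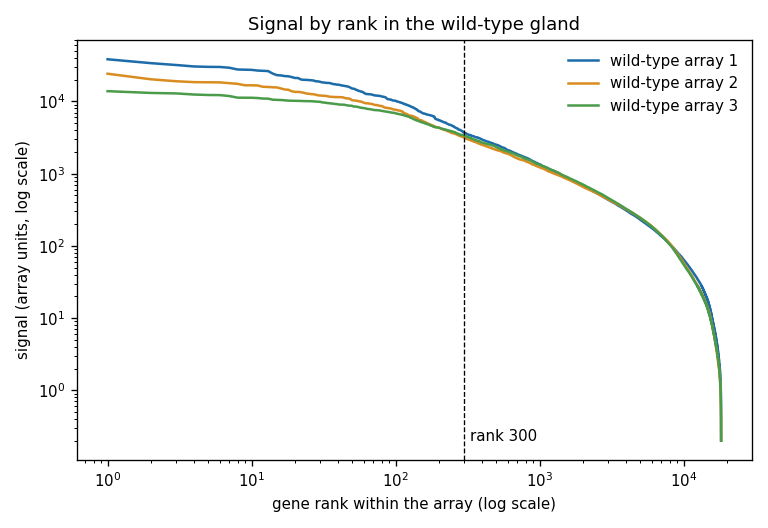
Signal of each gene against its rank within each wild-type array, both axes logarithmic; the dashed line marks rank 300. The 3 curves lie close together past rank 300 and spread apart to its left, from a highest signal of 38413 in array 1 to 13884 in array 3.

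Every gene was placed in the first of 41 functional lists that named it. Of the 300 genes, 63 fell in milk lists, 22 in lists of the secretory pathway, 7 in epithelial, 5 in stromal and 6 in immune lists. Another 120 fell in lists of general cell functions and 77 in none. Genes of the milk class took up 12.5%, 9.06% and 6.79% of the total signal and held 12 of the first 20 places. That class includes 8 genes of central carbon supply (0.882%, 0.628% and 0.646%) and 11 carriers, channels and pumps (1.22%, 0.886% and 0.846%). Among these are mitochondrial genes such as Cs, Mdh2 and Slc25a3. Scd1, Lpl, Fabp4, Cd36 and Fabp5 are also in the adipocyte list but count as milk, because the milk lists came first. General functions took up 15.3%, 13.4% and 12.6%. Among all genes measured for a class, 9.72% of milk genes, 10.6% of general genes and 8.09% of secretory genes were in the 300. The same share was 6.48% for epithelial, 4.38% for immune and 3.91% for stromal lists, and 0.489% for genes in no list, against 1.65% of all named genes. Carriers, channels and pumps, drawn by name pattern, make up 505 of the 648 milk genes measured and had 2.38% in the 300. The share was 70.0% for milk proteins, 56.25% for the fat droplet and its coat, 44.4% for fat synthesis and 37.5% for innate defence.

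**Figure D2:**
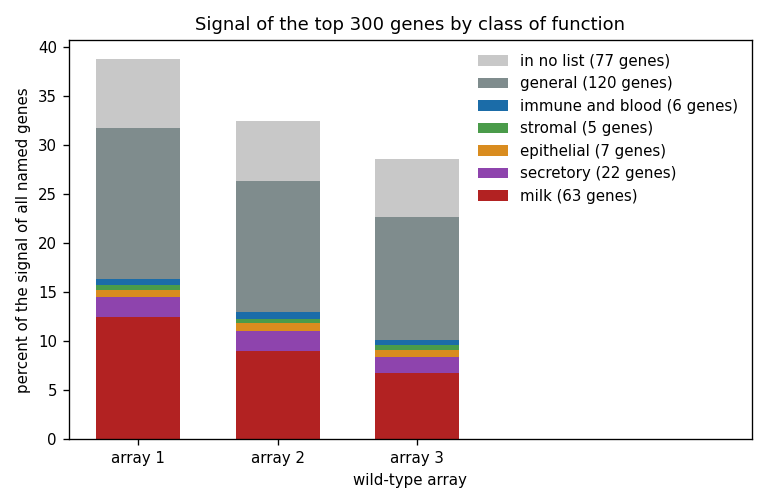
Percent of the signal of all named genes held by the top 300 genes in each wild-type array, stacked by the class of the first list that names a gene. Milk and general genes make up most of each bar, and the milk segment spans 12.5% in array 1 and 6.79% in array 3.

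Milk proteins filled the head of the order. Of 20 measured members of the milk protein list, 14 were in the 300 and together held 4.82%, 3.37% and 2.12% of the signal with the 6 others. The 5 caseins, which bind calcium and phosphate in micelles, held 2.18%, 1.55% and 0.917%. Csn1s2a, an alpha-s2 type casein, was the highest gene on each array, with signals of 38413, 24229 and 13884 and a mean of 25509 ± 12314 (SD, n = 3). Csn1s2b, the other alpha-s2 type casein, had signals of 30148, 19049 and 11893 at rank 3. Kappa-casein (Csn3), which stabilises the micelle surface, had signals of 30065, 17924 and 10076 at rank 6. In each casein array 1 was highest and array 3 lowest, and the coefficient of variation (CV, the SD as a percent of the mean) ran from 45.2% to 53.2%. Other probe sets of Csn1s2a and Csn3, given with the unused probe sets, did not all share that order. Csn1s2a fell to rank 30 when its probe sets were averaged and to 57 with the brightest of its plain probe sets.

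The whey and mucin-like proteins followed the same order of arrays. Glycam1, a mucin-like milk protein, had signals of 31981, 18518 and 10544 at rank 4. Alpha-lactalbumin (Lalba), the regulatory subunit of lactose synthase, had signals of 27720.5, 16747 and 7784 at rank 14. Lao1, an L-amino acid oxidase that releases hydrogen peroxide into milk, had signals of 26544, 15651 and 10202 at rank 11. Among the other secreted or membrane-bound milk proteins, ranks ran from 27 for the fat globule glycoprotein Mfge8 to 41 for the milk lipase Cel and 74 for the membrane mucin Muc15. Lactoferrin (Ltf), an iron-binding defence protein, had signals of 13786, 6380.4 and 5091 at rank 95. Olah, the thioesterase that releases medium-chain fatty acids, had signals of 9195, 5228 and 4347 at rank 137.

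The 6 measured milk proteins outside the 300 differed widely in level. Muc1, a mucin of the luminal surface, lay at rank 439 and B4galt1, the catalytic partner of Lalba in lactose synthase, at rank 476. Ceacam10 lay at rank 701 and lactoperoxidase (Lpo), a peroxidase of milk, at rank 976. The secreted protein Pip stood out by its spread, with signals of 3953, 256 and 461, high in array 1 only. Prap1 was dim on every array, at 11.7, 4.7 and 2.5.

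**Figure D3:**
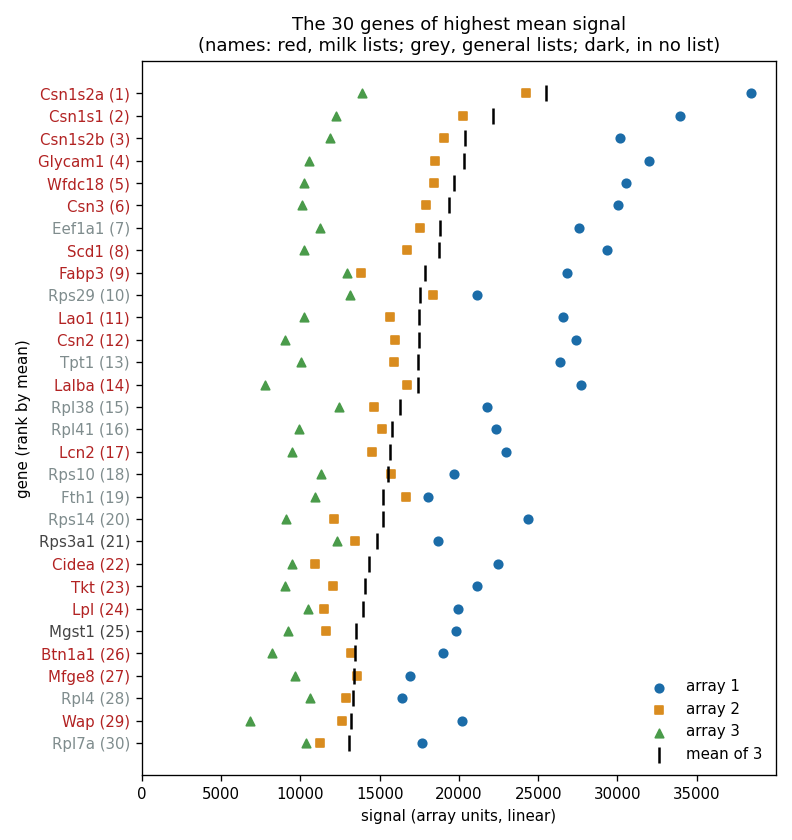
Linear signal of the 30 genes of highest mean in each wild-type array, with the mean over the 3 arrays as a tick; names in red are in a milk list, in grey in a general list and in dark in no list. Array 1 is highest for each of the 30 genes, and milk genes share the upper places with ribosomal proteins, Eef1a1, Tpt1 and Fth1.

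Several of the casein genes are neighbours in the RefSeq gene table. Csn1s1, Csn2, Csn1s2a and Csn1s2b form a run there, each adjacent to another among the genes with a place in the table. Of the 300 genes, 20 lay next to another of the 300, or 6.67%, against 590 of 18032 placed genes, or 3.27%. The pairs Scd1 with Scd2 and Saa1 with Saa2, named after their values were seen, were 2 more of the 11 adjacent pairs.

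Promoters were read from RefSeq (GRCm38.p6) as 250 bases before to 50 bases after the first listed start of each gene, for 242 of the 300 genes and for 14368 of all named genes. They were searched on both strands for TTCNNNGAA, the core element to which STAT5 can bind, for the TATA box TATAAA and for CCAAT. A further TATA-like word, TTTAAA, was added after the promoters had been read, and overlaps between words were not removed. TTCNNNGAA was present in 4 of the 11 milk protein promoters of the 300 that were matched, those of Csn1s1, Csn2, Csn1s2a and Glycam1. Over the 300 it was in 7.02% of promoters and over all named genes in 7.27%. TATAAA was in 10.7% of the promoters of the 300 and 9.86% of all, CCAAT in 41.7% and 38.2%, and TTTAAA in 9.92% and 10.2%. Median GC content was 50.3% in the milk protein promoters, 60.3% over the 300 and 58.7% over all. These shares describe letters in a window and not sites in use.

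The 4 promoters shown are those of the tissue markers and of Glycam1, as the 250 bases before the start in 5′ to 3′ direction of the gene. They lie at chr5:87665958-87666207 on the plus strand for Csn1s1, chr5:87699426-87699675 on the minus strand for Csn2, chr15:103565082-103565331 on the minus strand for Glycam1 and chr11:6638650-6638899 on the minus strand for Wap. Capitals mark TTCNNNGAA and TTTAAA.
Csn1s1: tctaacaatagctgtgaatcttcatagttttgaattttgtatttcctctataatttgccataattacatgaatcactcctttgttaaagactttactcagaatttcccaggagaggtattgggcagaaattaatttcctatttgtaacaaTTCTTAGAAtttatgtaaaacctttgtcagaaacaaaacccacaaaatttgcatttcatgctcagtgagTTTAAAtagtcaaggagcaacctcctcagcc
Csn2: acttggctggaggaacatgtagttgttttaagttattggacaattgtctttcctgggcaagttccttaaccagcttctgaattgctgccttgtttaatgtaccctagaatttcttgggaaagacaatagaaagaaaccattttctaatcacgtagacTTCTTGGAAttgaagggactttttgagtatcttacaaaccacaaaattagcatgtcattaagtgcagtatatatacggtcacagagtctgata
Glycam1: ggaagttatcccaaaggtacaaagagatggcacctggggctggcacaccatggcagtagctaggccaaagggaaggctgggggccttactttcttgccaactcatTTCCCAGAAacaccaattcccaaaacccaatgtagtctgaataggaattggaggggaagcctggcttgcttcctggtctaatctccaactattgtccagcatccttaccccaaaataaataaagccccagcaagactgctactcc
Wap: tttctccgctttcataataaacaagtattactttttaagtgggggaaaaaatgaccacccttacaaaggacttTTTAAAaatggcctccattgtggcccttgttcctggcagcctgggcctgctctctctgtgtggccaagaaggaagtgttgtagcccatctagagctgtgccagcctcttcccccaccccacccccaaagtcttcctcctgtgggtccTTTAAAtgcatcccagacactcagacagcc
The first base of TTCNNNGAA lay 100 bases before the start in Csn1s1, 93 in Csn2 and 145 in Glycam1, in the forms TTCTTAGAA, TTCTTGGAA and TTCCCAGAA. TTTAAA began 31 bases before the start in Csn1s1 and 30 in Wap, the distance at which a TATA box usually lies, and a further copy began at 177 in Wap. In Csn1s2a, whose promoter is not shown, TTCTTAGAA lay inside the first 50 transcribed bases. TTCNNNGAA was not in the letters of the Wap window.

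Proteins of innate defence were the other secreted group near the top. Of 24 measured, 9 were in the 300, with 1.81%, 1.28% and 1.04% of the signal for the whole list. Wfdc18, a small protein with the same fold as Wap, had signals of 30521, 18434 and 10208 at rank 5. Lipocalin-2 (Lcn2), which binds bacterial iron carriers, had signals of 22954, 14530.2 and 9449 at rank 17. Serum amyloid A1 (Saa1) had signals of 18964, 11078 and 8424 at rank 34. The receptor Pigr, which carries IgA across the epithelium into milk, had signals of 14064, 5444 and 5472 at rank 100.

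Genes for making fat were the longest milk list within the 300. Of 36 measured genes for fatty acid and triglyceride synthesis, 16 were in the 300, and of 16 for the fat droplet and its coat, 9. The first list held 3.31%, 2.37% and 1.83% of the signal and the second 2.07%, 1.68% and 1.32%. Stearoyl-CoA desaturase (Scd1) had signals of 29328, 16746 and 10233 at rank 8. Fatty acid synthase (Fasn) had signals of 18342, 8589 and 7535 at rank 49. ATP citrate lyase (Acly), which supplies its acetyl-CoA, had signals of 19918, 11993 and 5748 at rank 39. Lipoprotein lipase (Lpl), which frees fatty acids from blood lipids, lay at rank 24, and Thrsp, a regulator of fat synthesis, at rank 38. Thrsp varied more than the others, with signals of 23144, 8162 and 6650.4 and a CV of 72.1%. Scd1 and Lpl are also expressed in fat cells, and these arrays do not separate the sources.

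On the droplet side, Fabp3, a carrier of fatty acids in the cytosol, had signals of 26806, 13838 and 12921 at rank 9. Cidea, a droplet protein, had signals of 22478, 10938 and 9498 at rank 22. Butyrophilin (Btn1a1), the main protein of the fat globule membrane, had signals of 19024, 13206 and 8205 at rank 26. Perilipin-2 (Plin2), which coats the droplet, had signals of 17112, 11474 and 10104 at rank 31. The list for cholesterol synthesis had 0 of 22 measured genes in the 300 and its highest member, Fdps, at rank 359. That list also counts Fdx1 and Sqstm1, which are not enzymes of cholesterol synthesis. Without the probe sets that can match several transcripts, 2 of its genes were in the top 300.

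Sugar, carbon and solute supply contributed fewer genes. In the list for lactose synthesis and glucose supply, Lalba was 1 of 13 measured genes in the 300. The glucose transporter Slc2a1 lay at rank 794 and Ugp2, which makes UDP-glucose, at rank 443. For NADPH and central carbon, 9 of 27 measured genes were in the 300. Transketolase (Tkt), an enzyme of the pentose phosphate route, led them with signals of 21132, 12079 and 9014 at rank 23. Malic enzyme (Me1), a source of NADPH for fat synthesis, had signals of 15367, 7469.6 and 4575 at rank 82. Of 505 measured membrane carriers, channels and pumps, 12 were in the 300, or 2.38%. The folate receptor Folr1 was the highest, with signals of 18072, 7417 and 7546 at rank 51. The phosphate carrier Slc34a2 lay at rank 99 and Abcg2, which exports riboflavin and drugs into milk, at rank 127.

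The secretory pathway was represented by 16 of 75 measured genes for import, folding and glycosylation in the endoplasmic reticulum (ER). Its share of the signal, 2.60%, 3.08% and 2.59%, was not highest in array 1. Xbp1, a transcription factor of the unfolded protein response and of secretory cells, had signals of 12597, 10220.2 and 8503 at rank 57. Ssr4, a subunit next to the translocon, had signals of 12398, 8089 and 7093 at rank 79. The disulfide isomerase P4hb lay at rank 97 and the chaperone calreticulin (Calr) at rank 118. Of 198 genes for vesicle coats, Rab and SNARE proteins, 7 were in the 300, led by the small GTPases Arf1 at rank 68 and Rab1a at rank 72. Rab18, a GTPase found on lipid droplets, lay at rank 90. That list was drawn by name pattern and counts Rab5if, which is not a Rab protein.

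General functions made up the largest class. Ribosomal proteins held 36 of 49 measured genes in the 300 and 6.52%, 5.73% and 5.19% of the signal. Rps29 led them with signals of 21146, 18382 and 13126 at rank 10. Rps3a1, a ribosomal protein that the name pattern missed, lay at rank 21 and counts among the genes in no list. The elongation factor Eef1a1, which brings aminoacyl-tRNA to the ribosome, had signals of 27573, 17547 and 11263 at rank 7, and Tpt1 had 26384, 15879 and 10025 at rank 13. The count of ribosomal proteins depended on the kind of probe set. The part of their many near-identical pseudogene copies in the signal was not tested. Without probe sets that can match several transcripts, those with the suffixes _s, _x or _a, 6 ribosomal proteins were in the top 300. Genes with suffixed probe sets only, such as Rpl38, Rpl4 and Rplp2, drop out of that ranking whatever their level. Most of the 36 were such genes, so the count of 6 says little about their level. Probe sets with the suffix _a stood for 37.3% of the 300 genes and for 12.02% of all named genes, and those with _x for 14.3% and 3.29%.

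Of 85 measured genes of oxidative phosphorylation, 29 were in the 300, with 4.56%, 3.45% and 4.29% of the signal. Uqcrb, a subunit of complex III, had signals of 17385, 10295 and 10967 at rank 32. The cytochrome oxidase subunits Cox7a2, Cox6a1 and Cox4i1 lay at ranks 62, 63 and 71. Glycolysis had 3 of 15, led by Aldoc at rank 109. Ferritin heavy chain (Fth1), which stores iron, had signals of 18077, 16657 and 10950.3 at rank 19. The lysosomal list had 10 of 48, led by cathepsin B (Ctsb) at rank 87. The translation factors had 12 of 70 and the redox and metal list 8 of 80. The cell cycle list had 0 of 95 in the 300. The histone and chromatin list had 0 of 70, but its highest member, Hmgn1, lay at rank 301, and 1 gene of the list entered under median scaling, quantile normalisation, the geometric mean, the mean of ranks and without array 1.

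Smaller numbers came from the remaining general lists. The cytoskeleton list had 8 of 64, led by beta-actin (Actb) with signals of 16038, 10982 and 3847, a wide spread for a gene often used as a reference. Tmsb4x, which binds actin monomers, lay at rank 69. Chaperones outside the ER had 5 of 61, led by Hspa8 at rank 91, and the name pattern also took in Fkbp11, which works in the ER. RNA-binding proteins had 5 of 171, led by Hnrnpab at rank 206. Ubiquitin and proteasome genes had 2 of 228, led by the conjugating enzyme Ube2d3 at rank 141. Plasma-type proteins had 2 of 49, the chaperone clusterin (Clu) at rank 80 and ceruloplasmin (Cp), a copper oxidase, at rank 124. Immediate early and stress genes had 1 of 43, Nfkbia, the inhibitor of NF-kappa-B, at rank 187. The S100 and annexin list had 0 of 27, with Anxa1 highest at rank 647.

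A few genes that mark epithelial identity were among the 300. Of the 4 epithelial lists, 3 of 21 luminal, 2 of 33 transcription factor, 1 of 32 junction and 2 of 31 myoepithelial genes were in the 300. Among luminal markers, the surface protein Cd24a had signals of 15745, 11537 and 9032 at rank 44. Keratin 8 (Krt8), the main luminal filament protein, had signals of 3150.3, 4264 and 4152 at rank 253. Its partner Krt18 lay just outside, with signals of 2717, 3209 and 3492 at rank 316, as did Krt19 at rank 307 and Epcam at rank 327. The keratins were lowest in array 1, where the milk proteins were highest. The count for luminal genes was 8 when a gene's probe sets were averaged and 5 without array 1.

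Among transcription factors, Xbp1 and Elf5 were in the 300, and Sox10 at rank 304 and Srebf1, which drives lipid synthesis, at rank 346 lay below. Stat5a, the main STAT of the gland, had signals of 2444, 1654 and 1842 at rank 613, and Gata3, a luminal factor, had 676, 392 and 631 at rank 2418. Without array 2 or without array 3, 4 transcription factors were in the 300. Of the junction proteins, beta-catenin (Ctnnb1) was in the 300 at rank 210, and E-cadherin (Cdh1) had signals of 347, 882 and 1066 at rank 1773.

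Contractile and stromal genes were few among the 300. Smooth muscle actin (Acta2), found in myoepithelial cells and in vessel walls, had signals of 10177, 11964 and 10004 at rank 54, with a CV of 10.1%. Other defining myoepithelial genes were outside the 300, with Krt5 at 439.5, 989.9 and 781, and Krt14 at 271, 794 and 1037. The oxytocin receptor Oxtr, which triggers milk ejection, had signals of 761, 888 and 1338. The matrix protein Sparc, in the lists for both the basement membrane and fibroblasts, lay at rank 236.

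Fibroblast and matrix genes held 4 of 57 places. Collagen III (Col3a1) had signals of 7911, 5088 and 4625 at rank 149, and collagen I chain Col1a1 had 1051, 887 and 606 at rank 1609. The actin-severing protein gelsolin (Gsn), which many cell types express, lay at rank 117 and galectin-1 (Lgals1) at rank 286. Pdgfra, a fibroblast receptor, had signals of 183, 291 and 314. The summed share of this list was alike on the 3 arrays, at 0.836%, 0.819% and 0.859%.

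The adipocyte list had 7 of 24 in the 300, but 5 of these, Scd1, Lpl, Fabp4, Cd36 and Fabp5, are also in the milk lists. Adiponectin (Adipoq), a hormone of fat cells, had signals of 4991, 5125 and 6334 at rank 165. Carbonic anhydrase 3 (Car3), abundant in fat and muscle, had signals of 12055, 9517 and 8680.0 at rank 64. Fabp4, a fatty acid carrier of fat cells and capillary endothelium, had 9857, 12629 and 10119 at rank 53. With the probe sets used, Adipoq and Fabp4 were not highest in array 1, whereas Car3, Scd1, Lpl, Cd36 and Fabp5 were. The whole list held 1.56%, 1.35% and 1.20% of the signal. The 3 other probe sets of Car3 gave 2630.4, 2397 and 7167, then 135, 317 and 375, then 17.3, 126 and 426, with array 3 highest in each. Resistin (Retn) lay at rank 631 and leptin (Lep) at rank 7423.

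Defining markers of several other cell types of the gland were outside the 300. The endothelial list was present through Fabp4 alone, and Pecam1, Cdh5, Kdr and Tek ranked from 4353 to 6482. No gene of the muscle, nerve, macrophage, lymphocyte, erythroid or skin lists was in the 300. Of macrophage genes, Lyz2 had signals of 2119, 1510.2 and 1555 at rank 722 and Adgre1, a surface marker, 594, 411 and 366. The T cell genes Cd3e, Cd3d and Cd3g ranked no higher than 8770. Of the mast cell and granulocyte list Ltf alone, also a milk protein, was in the 300, and the mast cell protease Cpa3 lay at rank 5971. The 6 haemoglobin genes with a probe set of a single symbol did not rank above 9993. Probe sets shared by several genes were left out, so the level of all haemoglobin transcripts is not given by these ranks. Of the keratins of skin, Krt1 lay at rank 16334 and Krt10 had signals of 73.1, 99.3 and 99.2.

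**Figure D4:**
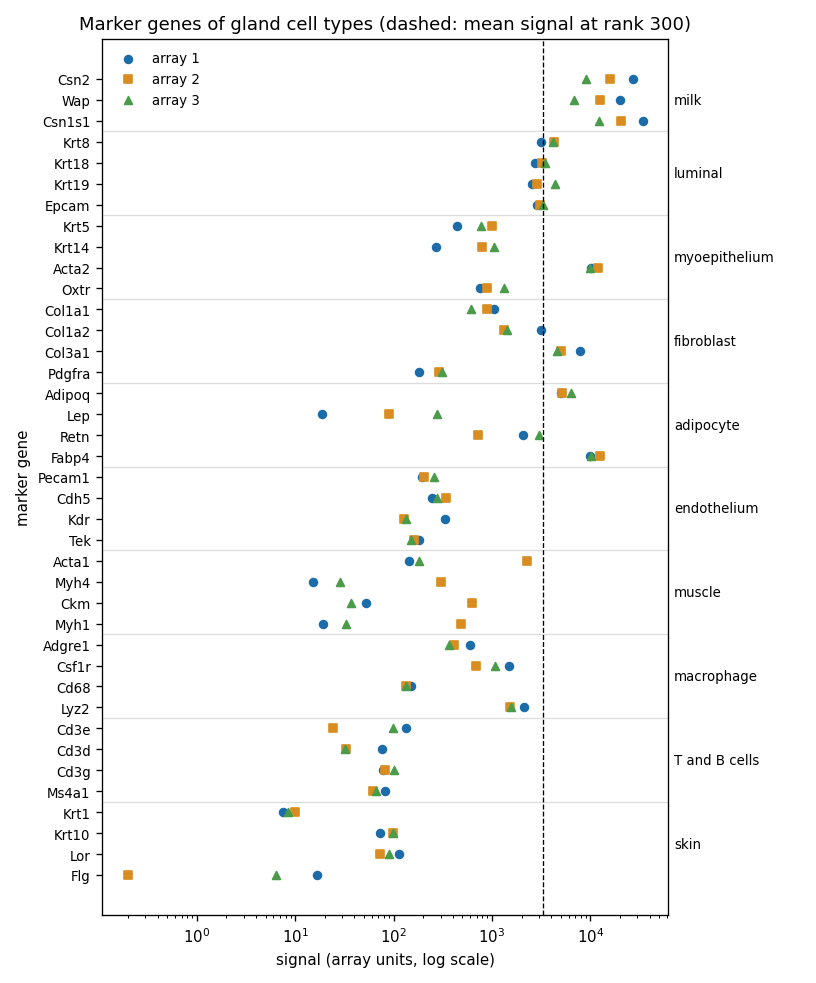
Signal (log scale) of marker genes of gland cell types on each wild-type array, grouped by cell type; the dashed line is the mean signal at rank 300. Milk markers lie to the right of the line, luminal keratins around it and most stromal, immune and skin markers to its left, and the 4 muscle genes are high in array 2 only.

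Skeletal muscle genes set array 2 apart. Skeletal actin (Acta1) had signals of 144, 2268 and 180.4, and muscle creatine kinase (Ckm) 52.5, 628 and 37.3. The 23 muscle genes summed to 0.0135%, 0.119% and 0.0179% of the signal. None was in the 300, and 286 of the 300 genes were also in the top 300 made without array 2.

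Antigen presentation and antibody genes were the immune genes of the 300. The MHC class I gene H2-K1 had signals of 13966, 8891 and 7702 at rank 61 and its partner B2m had 13655, 8332 and 7314 at rank 67; both are made by most cell types. The MHC class II gene H2-Aa, of antigen-presenting cells, lay at rank 295. The IgA heavy chain (Igha) had signals of 3847, 8401 and 6013 at rank 143, and Jchain, which joins IgA units, had 1105, 2485 and 3174 at rank 516. The kappa variable gene Igkv8-30 had signals of 594, 7928 and 4120.5 at rank 226 and the highest CV of the 300, 87%. All these antibody genes were lowest in array 1. Probe sets of variable genes can match several related genes, so the name Igkv8-30 is uncertain.

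Among the 77 genes in no list, the brightest after Rps3a1 were Mgst1, a membrane glutathione transferase, at 19797, 11602 and 9217, and Itm2b, a membrane protein, at 17325, 12787 and 8281. The surface proteins Ly6e and Plet1 lay at ranks 58 and 66. Plet1 had signals of 16177, 6318 and 7159. Lrpap1, a chaperone of lipoprotein receptors, lay at rank 73 and the mitochondrial gene ND5, a subunit of complex I, at rank 76. G0s2, an inhibitor of fat breakdown, had signals of 12555, 6746 and 6375 at rank 93. Bbip1, a part of the BBSome of cilia, lay at rank 104, and Tmem165, a manganese and proton transporter of the Golgi, at rank 105. The rank of Bbip1 rests on a single probe set of its 3, with a mean of 8184 against 166 and 43.6 for the others.

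Membership of the 300 was shared by the arrays for most genes, whereas the order of direct neighbours mostly was not. Ranked on single arrays, 228 of the 300 were in the first 300 of all 3 arrays, 57 of exactly 2 and 15 of 1. All of the first 100 genes were in the first 300 of each array, but of the last 100 only 33 were. A top 300 made from any 2 arrays held 251 to 256 genes that were also in the first 300 of the array left out. Of 19 neighbouring pairs among the first 20 genes, 4 kept their order on all arrays. Over the 300 no pair of neighbours, of 299, had a gap in mean larger than the SD. In a list sorted this densely, gaps between neighbours are small by construction, so that count does not judge order over wider distances.

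The edge at rank 300 cut through a dense run of genes. Rtn3, an ER-shaping protein, had a mean of 3348 ± 1069 (SD, n = 3), Atp6ap2, an accessory subunit of the proton pump, 3333 ± 879.8 and Eif4a2, an RNA helicase of translation, 3332 ± 849 just inside. Hmgn1, a chromatin protein, with 3316 ± 316, the predicted gene Gm12338 with 3309 ± 1033 and Hsd17b12, an enzyme of fatty acid elongation, with 3297 ± 587 lay just outside. A total of 72 genes lay within 10% of the mean at rank 300, 34 of them inside.

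Within the first 600 genes, the spread between arrays relative to the mean was widest among the brightest. Genes near the floor were not part of this comparison. The median CV was 25.5% over the 300, 47.6% over the first 20 and 20.7% over ranks 301 to 600. Array 1 gave the highest signal for 236 of the 300 genes and array 3 the lowest for 167. The chaperone Hsp90aa1 was the steadiest, with signals of 3978, 4129 and 4032 and a CV of 1.89%. Morf4l2, Nme2, Cfl1 and Rpl11 followed, up to a CV of 3.64%. Below Igkv8-30 and above Thrsp, the most variable were Qsox1, which forms disulfide bonds in secreted proteins, with signals of 9447, 3532 and 2042, and Tcn2, the vitamin B12 carrier, with 8394, 2278 and 2904. Fxyd3, a regulator of the sodium pump, had 6256, 2124 and 2271. Qsox1, Tcn2, Thrsp and Fxyd3 were high in array 1.

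Ratios between arrays, as the median log2 of signal + 1 over a list, differed between lists. Over all named genes the median log2 ratio was 0.11 for array 1 over array 2 and 0.11 for array 1 over array 3. For milk proteins it was 0.78 and 1.47, and for fatty acid and triglyceride synthesis 0.62 and 0.94. The myoepithelial list had -0.49 and -0.45, the luminal list -0.20 and -0.36 and the antibody list -1.28 and -0.91. Some lists of general functions also lay below 0, with -0.29 and -0.28 for RNA binding and splicing and -0.32 and -0.39 for immediate early genes. Skeletal muscle had -2.45 and -0.03. Not every list of a class lay on the same side, since the epithelial transcription factors had 0.02 and -0.02 and cholesterol synthesis 0.10 and 0.56. MHC genes, with 0.47 and 0.54, and macrophage genes, with 0.46 and 0.39, also lay above the median of all genes. The milk protein, fat synthesis, myoepithelial, luminal and antibody lists kept their sign when the arrays were brought to 1 median or to 1 distribution by quantile normalisation. After quantile normalisation milk proteins had 0.16 and 0.69. Ribosomal proteins, at 0.32 and 0.40 as deposited, turned to -0.06 and -0.30. Differences in cell make-up and in array handling cannot be told apart with these 3 arrays.

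**Figure D5:**
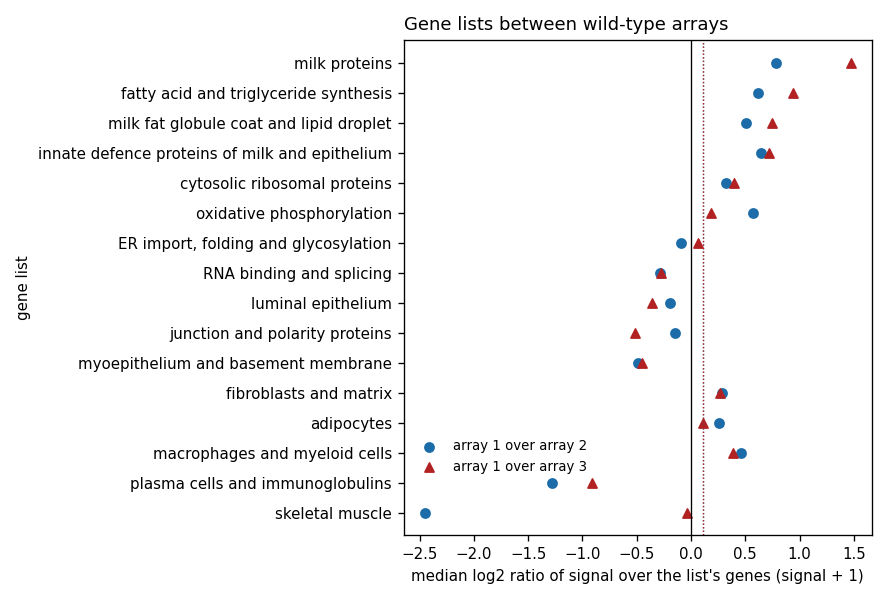
Median log2 ratio (signal + 1) of wild-type array 1 over array 2 (circles) and over array 3 (triangles) for a choice of gene lists; the solid line is 0 and the dotted line the median over all named genes, 0.11. Milk protein and fat lists lie to the right. The luminal, junction, myoepithelial, antibody and RNA-binding lists lie to the left, and the skeletal muscle list does so mainly over array 2. The ribosomal list changes side under quantile normalisation.

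Other probe sets of the same genes, which the rule did not use, gave another view of level. Of the 300 genes, 213 had several probe sets, with 471 besides the ones used. Of these 471, 127 (27.0%) also lay above the mean at rank 300. The 1.22% of all named probe sets above that mean all belong to the 300 genes by the rule. The share of 27.0% therefore has no independent comparison. The brightest other probe set of a gene had a median of 52.2% of the signal of the first. In 37 genes, Bbip1, Mgst1 and Ly6e among them, it had less than 10%. Another probe set of Csn2 had 23316, 12080 and 7553, in the order of arrays of the first. Csn1s2a differed, since one further probe set had 27153, 16993 and 9391 but another 495, 6465 and 9840 and still another 254, 8249 and 6885, with array 1 lowest. Another probe set of Csn3 had 521, 2432 and 2008, also lowest in array 1. For these caseins the order of arrays therefore depended on the probe set, and the cause was not tested.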

How the data were processed

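RNA of whole mammary glands was measured on 1 array per animal, and the 3 wild-type arrays were used. The deposited table holds linear signal intensity for 45101 probe sets. Per the submitters' processing notes, MAS5 and affy were among the tools with which the authors computed these intensities, with no version named. Each array had been scaled to 1 trimmed mean, 150 with 2% cut from each end. The number of arrays limits the precision.

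Control probe sets (64), 932 with several symbols and 9160 not listed in the platform's annotation were left out, which kept 34945. Of 18193 genes, 9010 had several probe sets. Symbols were matched to RefSeq through Entrez numbers for 18032. Of the probe sets left out other than controls, 170 exceeded the mean at rank 300, 119 with several symbols and 51 not listed. The highest of them had a mean of 18883, so some bright probe sets are missing from the ranking and from the total signal. Whether their genes are in the 300 through another probe set was not checked. Percent of signal is over all named genes, and ratios are of log2(signal + 1). No test was run. The genes and lists were chosen with earlier results of these data known. Named genes are the 3 markers, the first 25 genes, up to 5 leading members of each list (and the first 4 as written for cell types), all milk proteins, the 3 genes on each side of rank 300, the 5 lowest and 5 highest CVs and the 10 brightest unlisted genes. Protein length and signal sequences, planned as a further description, were not analysed here. The ranking code was tested on simulated data with noise independent between probe sets and arrays. That simulation held no array-wide differences at the bright end, so it does not judge the order found here. Python 3.11.15, pandas 2.3.3, numpy 2.4.6 and matplotlib 3.10.9 were used.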

Additional observations from a re-analysis of the deposited data

How the results depend on the processing

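The share of signal held by the top 300 lay between 30.7% and 35.7% over 11 other settings, including each array left out, against 33.3%. Leaving out an array kept 278, 286 and 288 of the 300 genes without replicate 1, 2 and 3, and averaging all probe sets of a gene kept 244. Without the suffixed probe sets 153 remained, where 215 of the 300 have a plain one, and 2 immune genes were counted in place of 6. Epithelial genes numbered 12 with averaged probe sets against 7. Csn1s2a moved to rank 30 with averaged and 57 with plain probe sets, and Wap to 49 without array 1. Among 551 values for lists and single genes under other settings, 494 kept within the spread or within 1.5 times, 52 did not and 5 changed sign. Subtracting the 10th percentile of each array or leaving out genes under the 40th percentile cannot change the order of bright genes. The list counts and ranks under these settings were therefore fixed in advance and are part of the 494. Csn2, Wap and Csn1s1 have no value without the suffixed probe sets.

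Ratios between arrays were checked under 2 other scalings chosen after seeing the data. The top 300 had a median log2 ratio of 0.44 for array 1 over 2 and 0.49 over 3 as deposited, and 0.055 and 0.051 after quantile normalisation, and the latter ratio was 0.22 with arrays at 1 median. The sign turned for ribosomal proteins after quantile normalisation (-0.057 and -0.30). It also turned for oxidative phosphorylation over array 3 (-0.081 at 1 median and -0.0039 after quantile normalisation) and for all named genes over array 3 at 1 median (-0.15). The cause was not tested. No paired analysis was possible because only wild-type arrays were used and no test was run. Detection calls were not analysed here, so dim genes have a level and no presence call.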
